A study of Mus musculus with 6 samples.

Results

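Transcripts of 72 interleukin and interleukin receptor genes were examined in mouse lung. They are the protein-coding genes whose symbol begins with Il and a digit, among 55573 Ensembl genes of the count table (21903 of them protein-coding). The 10 core genes of the IL-1 and IL-18 systems (Il1a, Il1b, Il1rn, Il1r1, Il1r2, Il18, Il18r1, Il18rap, Il33 and Il1rl1) were left out. By kind, 36 members encode receptor chains, 34 encode cytokines, and the others are the binding protein gene Il18bp and the enzyme gene Il4i1. Lungs came from wild type C57BL/6 mice of 9 to 10 weeks, and both groups had been exposed to cigarette smoke. The CS group (3 libraries) was exposed for 75 min per session, with 2 sessions a day, on 5 days a week over 4 weeks. The SS-31H_CS group (3 libraries) was exposed to smoke and also dosed once a day with 5 mg/kg of SS-31, a peptide antioxidant that concentrates in mitochondria. The smoke schedule is stated for the CS group only, smoke-free lungs were not analysed here, and no label ties each library to its own mouse, so the p-values measure the spread between these libraries.

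Interleukins are secreted proteins through which immune, epithelial and stromal cells signal to each other. Most bind receptors built from a ligand-specific chain and a shared chain. Shared chains include the common gamma chain (Il2rg), gp130 (Il6st) and the IL-10 receptor beta chain (Il10rb), and they pass the signal to JAK kinases and STAT transcription factors. IL-17 receptors and receptors of the IL-1 superfamily use other adaptors and lead to NF-kB. In the lung, IL-4 and IL-13 are known for mucus and alternative macrophage activation, IL-17A for neutrophil recruitment by the epithelium, and IL-6 for the acute phase response.

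Total counts were 15611925 to 17360052 per library. Surfactant and related markers of alveolar type 2 cells, 5 genes, summed to 15085 to 20504 CPM (read counts scaled by TMM library size), as labelled for lung. Pdpn, a marker of alveolar type 1 cells, was listed at 0 in all 6 libraries, while 3 other markers of those cells were well above it. CS replicate 3 and SS-31H_CS replicate 3 lay at the ends of the first principal component, which held 48.4% of the variance. The first of these libraries was the lowest of the 6 in 28.7% of all 16965 tested genes and the highest in 27.5%. Summed markers of T and NK cells were 35.5 CPM in CS replicate 3 against 66.7 to 156 CPM in the other libraries. Values that touch a result below are given beside it.

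Among these 72 members, receptor chain genes held most of the summed FPKM. The cytokine genes left out by the rule, such as Il1b, Il18 and Il33, are not in these sums. By FPKM, which is scaled to gene length and so allows genes to be compared, the 36 receptor chain genes summed to 225 to 289 per library and the 34 cytokine genes to 37.4 to 52.6. Of the 72 members, 11 had a mean FPKM of at least 10, and 10 of these were receptor chain genes. The highest mean FPKM were those of Il6st (46.4), Il4ra (41.4) and Il2rg (22.0), followed by Il10rb (18.3), Il11ra1 (18.2) and Il17rc (17.8). The cytokine gene among the 11 was Il1f9, which encodes IL-36 gamma (11.7). A further 18 members lay between 1 and 10 FPKM, and 43 lay below 1.

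**Figure D1:**
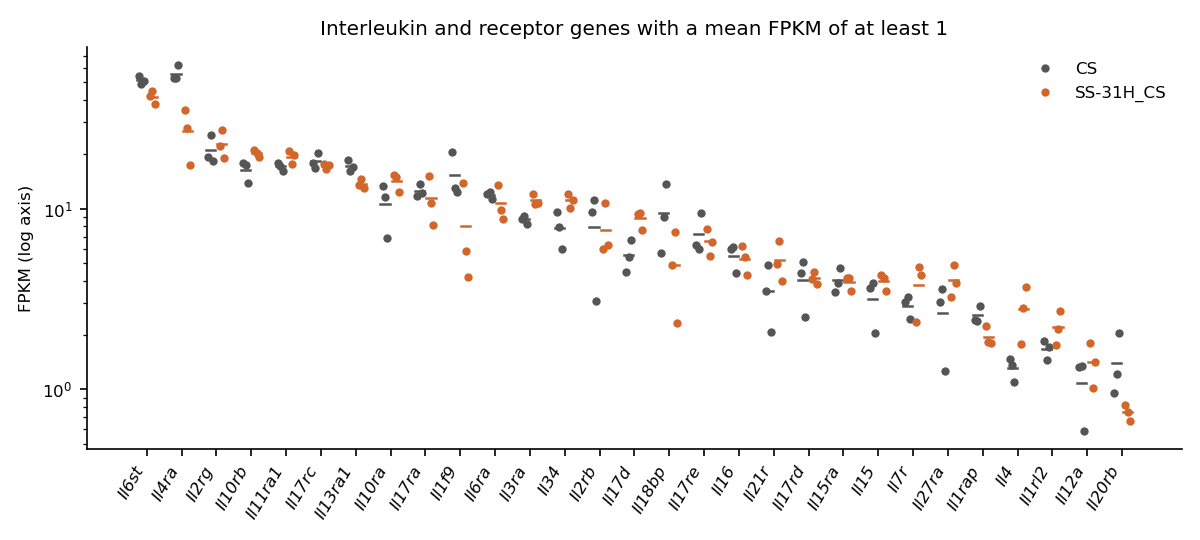
FPKM (log axis) of the 29 members with a mean FPKM of at least 1, in order of their mean. Points are the 3 libraries of each group and bars are group means. Il6st and Il4ra stand at the top, and Il4ra is the gene whose groups lie farthest apart among the first 10.

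Of the 72 members, 39 had enough counts to be tested (28 receptor chain genes, 10 cytokine genes and Il18bp). Of these, 0 passed an adjusted p of 0.05 (edgeR's quasi-likelihood test, Benjamini-Hochberg adjustment over the whole table), where 0.153% of all tested genes passed. The count was 0 by limma voom as well and 2 (Il4ra and Il6st) by DESeq2. DESeq2 called 939 genes in all, against 26 by edgeR's test, so the 2 members are not read as an excess over that background. At an unadjusted p under 0.05 there were 11 members (28.2% of the 39), where 18.2% of all tested genes had such a p. Of the 11, 4 were higher with SS-31, at 10.3% against a background of 9.93%. The other 7 were lower, at 17.9% against 8.23%. In 9 tested members (23.1%) no library of one group reached the range of the other, against 26.1% of all tested genes. Of the 9, 4 were higher with SS-31, where the background is 13.6%, and 5 were lower, where it is 12.4%. The shares that were higher, and the shares without overlap, were thus near the background. The median log2 fold change of the tested members (SS-31H_CS over CS) was 0.06, beside 0.01 over all tested genes, with 21 positive and 18 negative values from -1.11 to 1.02.

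**Figure D2:**
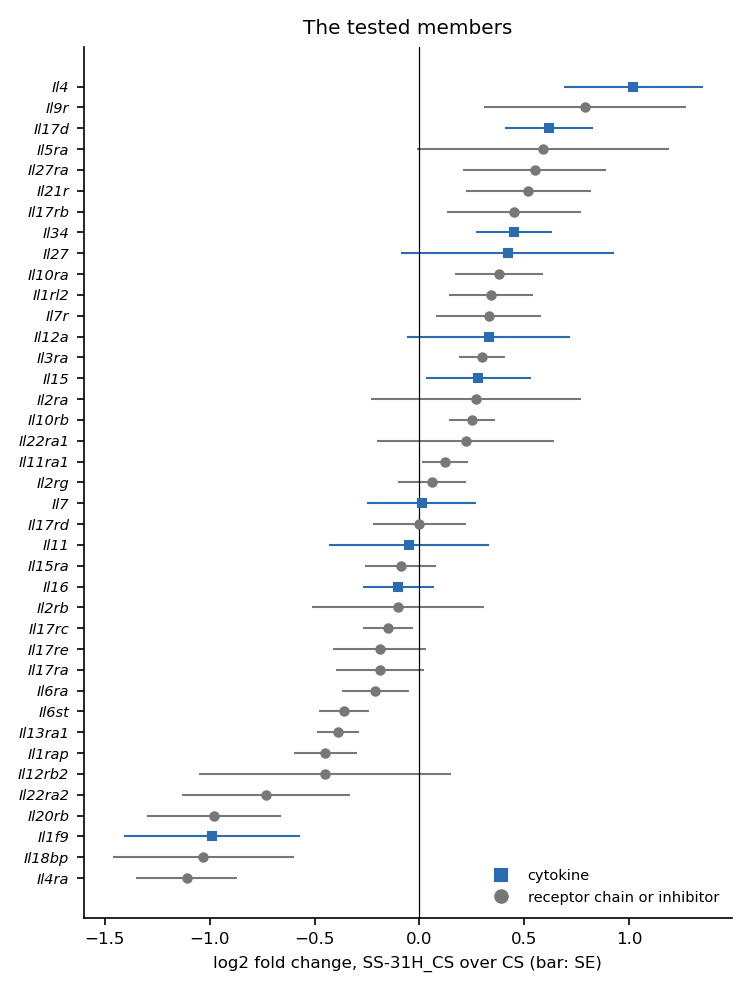
Log2 fold change with its standard error for the 39 tested members, SS-31H_CS over CS. Squares are cytokine genes and circles are receptor chain genes with Il18bp. Il4 is at the top (1.02) and Il4ra at the bottom (-1.11), and cytokine and receptor chain genes lie on both sides of 0.

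The IL-4 and IL-13 system held both ends of that range. IL-4 signals through the IL-4 receptor alpha chain (Il4ra), paired with the common gamma chain or with the IL-13 receptor alpha 1 chain (Il13ra1), and the second pair also binds IL-13. Il4ra (ENSMUSG00000030748, GRCm38 chromosome 7, 125552120 to 125579474) stood at 322, 315 and 393 CPM in CS libraries 1, 2 and 3, and at 212, 159 and 105 CPM in SS-31H_CS libraries 1, 2 and 3. Every SS-31H_CS library lay below every CS library. The group means were 343 ± 43.2 and 159 ± 53.5 CPM (SD, n = 3 per group), 2.16-fold lower with SS-31. The log2 fold change was -1.11 (SE 0.24), with an adjusted p of 0.0994 by edgeR's test, the lowest of the 39 members. Over 16 alternative analyses the adjusted p ran from 0.000331 (DESeq2) to 0.282, and with 1 library left out the log2 fold change ran from -1.38 to -0.89. In RNA from whole lung, fewer cells of a type and less RNA per cell cannot be told apart.

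Other groups of genes were lower in the same libraries, and their part in the Il4ra values was not tested. Glucocorticoid-responsive genes summed to 1185, 1233 and 1937 CPM in CS and 746, 795 and 805 CPM in SS-31H_CS over 7 genes, of which 6 had an unadjusted p under 0.05, all lower. Endothelial markers summed to 3170 to 3580 CPM in CS and 2265 to 2816 CPM in SS-31H_CS over 5 genes, 3 of them at an unadjusted p under 0.05 and lower. Of 7 alveolar macrophage markers 3 were lower at such a p (Chil3, Marco and Siglecf), and Ear1, Ear2, Krt79 and Fabp1 had overlapping groups. Their sum was 1355 to 1730 CPM in CS and 535 to 909 CPM with SS-31, most of it Chil3, and without Chil3 it was 163, 133 and 100 CPM and 116, 103 and 106 CPM, which overlap. By edgeR's test 0 genes of these lists passed the adjusted threshold (DESeq2 called 5, 2 and 2).

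Il13ra1 (chromosome X, 36112110 to 36171259) was also below the CS range in every SS-31H_CS library. It was at 69.9, 59.6 and 66.2 CPM in CS and at 49.8, 52.0 and 47.9 CPM in SS-31H_CS (log2 fold change -0.39, SE 0.10, adjusted p = 0.137 by edgeR's test). The log2 fold change stayed between -0.45 and -0.34 with any 1 library left out. The partner chain gene Il2rg was at 51.2 ± 8.40 and 53.5 ± 8.37 CPM (SD, n = 3 per group), with overlapping groups and an adjusted p of 0.860. Exons of Il2rg overlap those of the annotated gene Gm20489 on the same strand over 30.5% of their length, and how reads there were counted is not given in the sources used here. The decoy receptor gene Il13ra2 had 5 reads in CS replicate 3, 1 in SS-31H_CS replicate 2 and 0 in the other libraries.

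The ligand gene Il4 (chromosome 11, 53602982 to 53618669, minus strand) lay the other way. It was at 1.83, 1.66 and 1.42 CPM in CS and at 2.19, 3.30 and 4.53 CPM with SS-31. The SS-31H_CS libraries were all above the CS libraries at this low level, which rests on 251 reads in all. The group means were 1.64 ± 0.206 and 3.34 ± 1.17 CPM (SD, n = 3 per group), 2.03-fold higher with SS-31. The log2 fold change was 1.02 (SE 0.33) with an adjusted p of 0.179 by edgeR's test, and it ran from 0.74 to 1.25 with 1 library left out. Markers of cells that can make IL-4 differed by list. Those of mast cells and basophils and of T and NK cells had mostly positive log2 fold changes, 1 of them at an unadjusted p under 0.05. Of 5 tested mast cell and basophil markers all 5 had a positive log2 fold change (median 0.97). Ms4a2 had 1.58 and that p, on 68 reads in all with overlapping groups. With the untested Fcer1a, the list of 6 summed to 259, 282 and 104 CPM in CS and 232, 242 and 189 CPM with SS-31. Without Kit, the highest of the list, the sums were 4.07, 5.33 and 1.23 CPM in CS and 6.68, 6.05 and 3.94 CPM with SS-31. Of 9 T and NK cell markers 7 were positive (median 0.71), 0 at such a p, with sums of 71.1, 93 and 35.5 CPM and 66.7, 156 and 82.2 CPM. Markers of group 2 innate lymphoid cells were mixed, with 3 positive and 2 negative of 5 (median 0.18) and 1, Rora, higher at such a p. Of 4 eosinophil markers only Siglecf was tested, and it was lower at such a p (-0.58). Siglecf is also on the alveolar macrophage list above. Without it, the eosinophil markers summed to 0.413, 0.516 and 0.123 CPM in CS and 0.65, 1.34 and 0.176 CPM with SS-31. These sums overlap and rest on 27 reads of Prg2, 23 of Ccr3 and 4 of Epx in all. The median over all tested genes was 0.01. By edgeR's test or by DESeq2, 0 markers of these lists passed the adjusted threshold, and their part in the Il4 values was not tested. Il13 was near absent, with 4 reads over the 6 libraries, and Il5 had 3 to 13 reads per library with overlapping groups. Il3, Il9 and Il31 had 0 reads in every library. A count of 0 allows up to 3 reads, or 0.172 to 0.185 CPM by library, counting error only.

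The promoters of Il4 and Il4ra are shown because this ligand and its receptor were the tested members at opposite ends of the range. The window is the 250 bases before the RefSeq start site on GRCm38.p6, 5′ to 3′ on the gene's strand (for Il4 the listed start nearest to the GENCODE gene's start, of 2). The RefSeq start lies inside the GENCODE gene, so that the last 4 bases of the Il4 window and the last 151 of the Il4ra window are within the gene and are not printed. The stretches shown are chr11:53618670-53618915 (Il4, minus strand, 246 bases) and chr7:125552021-125552119 (Il4ra, plus strand, 99 bases). Capitals mark matches to GGAAAA, the core letters of NFAT sites, on either strand.
Il4: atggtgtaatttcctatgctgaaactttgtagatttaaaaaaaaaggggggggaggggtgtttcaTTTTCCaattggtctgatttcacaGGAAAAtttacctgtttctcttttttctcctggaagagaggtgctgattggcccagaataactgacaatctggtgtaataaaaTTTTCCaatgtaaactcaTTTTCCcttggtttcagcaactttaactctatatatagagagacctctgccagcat
Il4ra: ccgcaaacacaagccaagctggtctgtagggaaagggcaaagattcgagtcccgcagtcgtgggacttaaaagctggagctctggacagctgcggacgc

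NFAT is the calcium-regulated factor of activated T cells, and its action on the Il4 promoter is textbook knowledge. The Il4 window held 4 such matches, at 185, 161, 78 and 60 bases before the RefSeq start, and the Il4ra window held 0. This motif was searched after the sequences had been seen. It was found in 22.9% of 27025 genes with a promoter sequence and in 18 of 55 members (32.7%). Among the tested members with a sequence it was found in 6 of 29. The STAT motif TTCNNNGAA was found in 6 of 55 members (10.9%) against 8.13% of all genes, and the glucocorticoid receptor motif TGTTCT also in 6 (10.9%) against 18.2%. The last 2 motifs, searched on both strands, had no match in either window shown. The Il4ra window is richer in G and C (59.6%) than that of Il4 (37.6%), beside a median of 52.4% over all promoters.

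Genes induced by IL-4 and IL-13 went both ways. Of 12 tested genes of a list of 16, 3 were higher and 4 lower at an unadjusted p under 0.05, and 0 passed the adjusted threshold by edgeR's test (4 by DESeq2). The median log2 fold change was 0.18. Of 6 dendritic cell markers, which include Ccl22, 3 were higher at an unadjusted p under 0.05 and without overlap (Ccl22, Xcr1 and Siglech), 0 passed the adjusted threshold by edgeR's test (2 by DESeq2), and the median was 0.85. Their summed level, set mostly by Clec9a and Zbtb46, was 84.9 to 86.4 CPM in CS and 85.2 to 109 CPM with SS-31, and their part was not tested. The chitinase-like gene Chil3 was at 1400, 1222 and 1629 CPM in CS and 794, 679 and 429 CPM in SS-31H_CS (-1.16, adjusted p = 0.0893). Chil3 is also the gene that made up most of the alveolar macrophage marker sum above, so these are the same values. The mannose receptor gene Mrc1 was lower in every SS-31H_CS library as well (-0.71, adjusted p = 0.107). The eotaxin gene Ccl11 lay the other way, at 0.472, 0.458 and 0.803 CPM in CS and 1.83, 2.87 and 1.59 CPM in SS-31H_CS (1.85, adjusted p = 0.0994). Ccl22, a chemokine gene, was at 1.61 to 4.54 CPM in CS and 4.55 to 17.8 CPM in SS-31H_CS (1.82, adjusted p = 0.152), and the third gene that was higher, Muc5ac, rested on 1 library described below. Stat6, the STAT of this system, was at 188 ± 13.9 and 191 ± 12.4 CPM (SD, n = 3 per group).

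**Figure D3:**
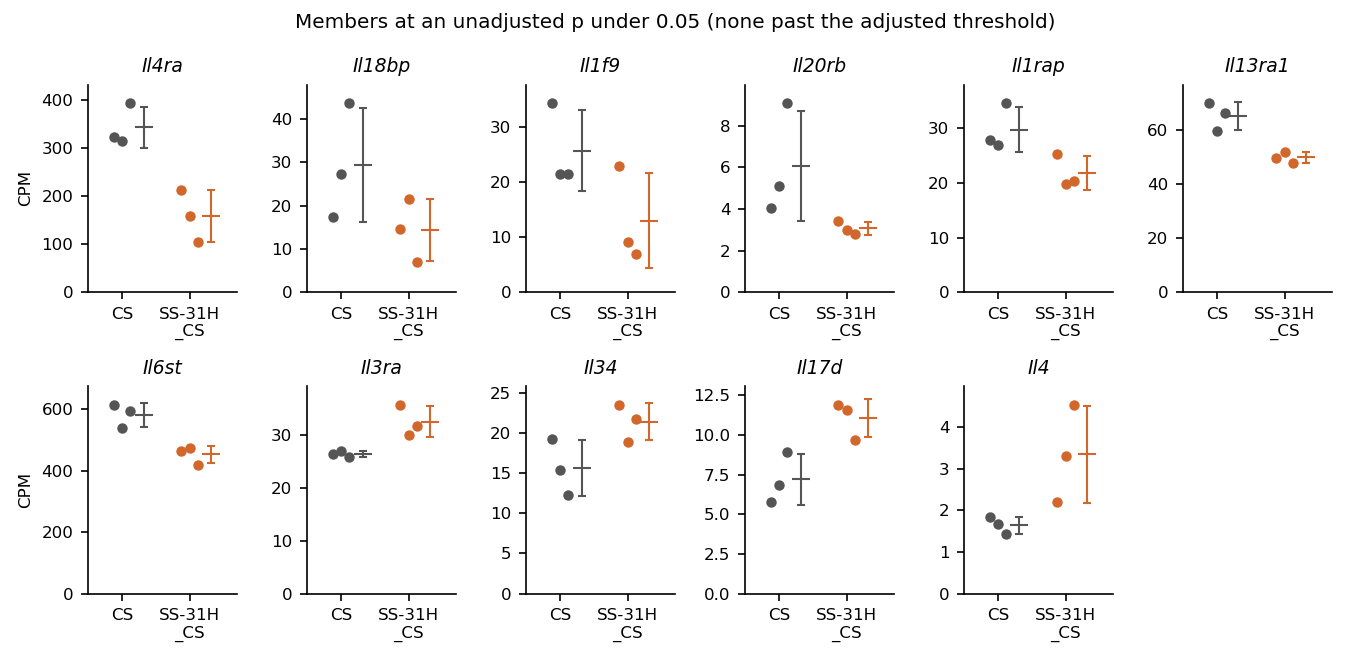
CPM in each library for the 11 members at an unadjusted p under 0.05, ordered from the lowest to the highest log2 fold change. Points are libraries, and the bar beside them is the group mean with its SD (n = 3 per group). The groups do not overlap in Il4ra, Il20rb, Il1rap, Il13ra1, Il6st, Il3ra, Il17d and Il4, and they overlap in Il18bp, Il1f9 and Il34.

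In the IL-6 family, the shared chain gene had a lower mean with SS-31, short of the adjusted threshold by edgeR's test. Il6 and Il11 were scarce. Il6st, which encodes gp130 (chromosome 13, 112464070 to 112510086), was at 614, 538 and 594 CPM in CS and 465, 473 and 420 CPM in SS-31H_CS. The groups did not overlap, and the difference was small (1.29-fold lower, log2 fold change -0.36, SE 0.12, adjusted p = 0.182 by edgeR's test). It ran from -0.42 to -0.31 with 1 library left out, and DESeq2 gave an adjusted p of 0.0479. Il6ra, the IL-6 binding chain gene, was at 103 to 107 CPM in CS and at 116, 81.0 and 75.8 CPM in SS-31H_CS (-0.21, adjusted p = 0.513). Here SS-31H_CS replicate 1 lay above all CS libraries and the other libraries of its group below them. The IL-11 receptor gene Il11ra1 had overlapping groups (78.1 ± 3.06 and 85.2 ± 8.98 CPM; SD, n = 3 per group; adjusted p = 0.579). The IL-27 receptor gene Il27ra was at 4.69 to 12.6 CPM and 11.3 to 16.3 CPM (0.55, adjusted p = 0.417).

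Il6 itself (chromosome 5, 30013114 to 30019981) had 7, 3 and 16 reads in CS replicates 1, 2 and 3 and 7, 6 and 1 reads in SS-31H_CS replicates 1, 2 and 3. It was too low to be tested, and the groups overlapped. Il11 was at 0.688 to 1.12 CPM in CS and 0.709 to 1.22 CPM in SS-31H_CS (-0.05, adjusted p = 0.954). Cytokine genes of the family without an interleukin name had more reads, with 807 for Lif, 487 for Osm and 536 for Ctf1, but 15 for Clcf1. Lif, Osm and Ctf1 had overlapping groups (-0.09, -0.07 and 0.20, adjusted p = 0.909, 0.955 and 0.668 by edgeR's test). Of 13 tested genes induced by IL-6 and STAT3, 12 had a negative log2 fold change, and 0 passed the adjusted threshold by edgeR's test (1 by DESeq2). The median was -0.49, beside 0.01 over all tested genes. At an unadjusted p under 0.05, 3 were lower, where 8.23% of all tested genes were lower at such a p. Among these 3, Timp1, a metalloproteinase inhibitor gene, was at 12.6 to 39.2 CPM in CS and 5.85 to 14.9 CPM in SS-31H_CS (-1.31, adjusted p = 0.216). Osmr, the oncostatin M receptor gene, was at 77.9 to 111 CPM and 66.6 to 76.5 CPM without overlap (-0.39, adjusted p = 0.221). Saa1 was at 1, 0.516 and 4.88 CPM in CS and 0.0591, 0.856 and 0 CPM in SS-31H_CS, with overlapping groups (-2.79, adjusted p = 0.262 by edgeR's test). CS replicate 3 was the highest library for Timp1, Osmr and Saa1, as for Il6.

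In the kinase and STAT layer, 0 of 11 tested JAK and STAT genes passed the adjusted threshold by edgeR's test (1 by DESeq2), and 1 was lower at an unadjusted p under 0.05. This was Stat3, at 353, 350 and 435 CPM in CS and 299, 271 and 259 CPM in SS-31H_CS (-0.46, SE 0.13, adjusted p = 0.149). Jak1 was also without overlap, at 241 to 278 CPM and 207 to 239 CPM (-0.24, adjusted p = 0.321). Of 13 SOCS inhibitors and related regulators, 3 were lower at such a p, 0 higher, and 0 passed the adjusted threshold by edgeR's test or by DESeq2. The 3 were the phosphatase gene Ptpn11 (-0.51, adjusted p = 0.177), the STAT5 feedback gene Cish (-0.45, adjusted p = 0.269) and Socs6 (-0.25, adjusted p = 0.273), each without overlap. Socs3, the feedback inhibitor of gp130 signalling, was at 136, 100 and 200 CPM in CS and 118, 84.5 and 43.2 CPM in SS-31H_CS (-0.83, adjusted p = 0.278).

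Il17a and Il17f, which encode the IL-17 cytokines of T cells, set 1 library apart from the rest. Il17a (chromosome 1, 20730905 to 20734496) had 27 reads in SS-31H_CS replicate 2 and 0 in each of the other 5 libraries. Il17f had 11 reads in that library and at most 2 in any other, and Il21 had 19 reads against at most 6. Il22 had 4 reads there and at most 1 elsewhere, and Il10 had 21 reads against 0 to 14. Il12b, which encodes the chain shared by IL-12 and IL-23, had 22 reads against 1 to 10. Of the 24 members below the filter with at least 1 read, 10 (41.7%) had their highest CPM in this library and 2 to 4 in each other library. Over all 12172 genes below the filter with 1 to 53 reads, 23.1% were highest in it. The other libraries with SS-31 had 0 reads of Il17a, Il17f, Il21 and Il22, so the SS-31H_CS value of these genes rests on SS-31H_CS replicate 2. Il12b also had 5 and 10 reads in the others.

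Other genes stood apart in the same library. T cell receptor genes were highest there, with Cd3e at 14.5 CPM against 3.27 to 6.35 CPM elsewhere, Cd3g at 24.1 against 4.57 to 9.57 CPM and Trac at 19.7 against 5.62 to 7.65 CPM. The epithelial chemokine gene Ccl20 was at 38.7 CPM against 0.118 to 0.946 CPM, Cxcl5 at 9.59 against 0.470 to 1.2 CPM and Cxcl1 at 6.23 against 0.688 to 2.28 CPM. The antimicrobial gene Ltf was at 453 CPM against 47.9 to 149 CPM. Some goblet cell and type 2 genes were high there too: the mucin gene Muc5ac was at 75.9 CPM against 1.03 to 1.53 CPM, Clca1 at 43.5 against 0 to 0.236 CPM, Itln1 at 17.4 against 0 to 0.556 CPM, and Retnla at 375 against 75.3 to 103 CPM. Other genes of the same lists were not: Arg1 was at 1.16 CPM and Chil3 at 679 CPM there, and Alox15 (2.87 CPM) and Lcn2 (723 CPM) were higher in CS replicate 3 (11.2 and 936 CPM). Il13 had 2 reads there and Il4 was not highest in it. Whether these values belong together was not tested, since they come from 1 library.

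**Figure D4:**
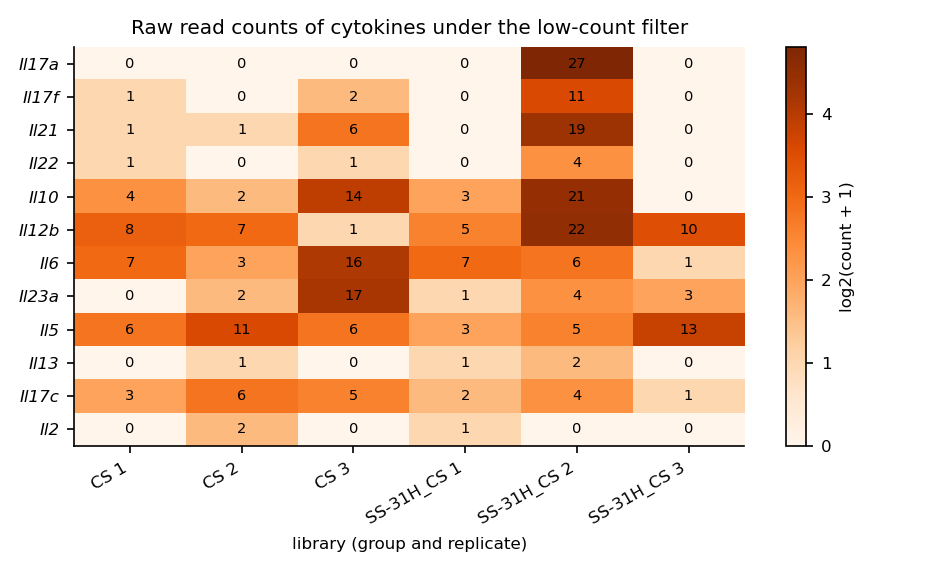
Raw read counts of 12 cytokine genes below the low-count filter, by library, with colour for log2(count + 1). The column of SS-31H_CS replicate 2 holds the highest counts of Il17a (27), Il12b (22), Il10 (21), Il21 (19) and Il17f (11), and CS replicate 3 those of Il23a (17) and Il6 (16).

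The IL-17 receptor chains were expressed in all libraries, with overlapping groups for each of the 5. Il17ra, the shared chain gene, was at 103, 118 and 112 CPM in CS and 132, 89.3 and 70.2 CPM in SS-31H_CS, on both sides of the CS range (-0.19, adjusted p = 0.659). Il17rc was at 50.2 ± 6.57 and 45.3 ± 2.68 CPM (SD, n = 3 per group; adjusted p = 0.540), and Il17re, the IL-17C receptor gene, at 34.8 to 58.2 and 30.7 to 45.3 CPM. Il17rd did not separate the groups (log2 fold change 0.00, adjusted p = 0.999). Il17rb, which encodes the IL-25 receptor, was at 0.803 to 1.32 CPM in CS and 1.29 to 1.59 CPM in SS-31H_CS (0.45, adjusted p = 0.484), and Il25 had 1 read in all. Of 13 tested genes of IL-17 signalling and its epithelial targets, 1 was higher (Ccl20) and 1 lower (Cxcl2) at an unadjusted p under 0.05, and 0 passed the adjusted threshold by edgeR's test (1 by DESeq2). Cxcl2 was at 29.0 CPM in CS replicate 1, 1.38 and 5.00 CPM in the other CS libraries and 0.353 to 1.41 CPM in SS-31H_CS (-3.98, adjusted p = 0.145).

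Il17d, a member of the family made outside the immune system, lay apart from Il17a. It was at 5.78, 6.88 and 8.95 CPM in CS and 11.9, 11.6 and 9.70 CPM in SS-31H_CS, without overlap (1.54-fold higher, log2 fold change 0.62, SE 0.21, adjusted p = 0.192 by edgeR's test; chromosome 14, 57524777 to 57543166). With 1 library left out its log2 fold change ran from 0.48 to 0.80. Il17b and Il17c had 12 and 21 reads in all. Ciliated cell markers differed between the groups in the same direction as Il17d, summing to 121, 139 and 104 CPM in CS and 219, 259 and 375 CPM with SS-31 over 5 genes. All 5 had an unadjusted p under 0.05 (0 past the adjusted threshold by edgeR's test, 5 by DESeq2). Within SS-31H_CS their sum was highest in replicate 3, where Il17d was lowest. Club cell markers were higher as well, 3 of 3 at such a p and 1, Scgb3a2, past the adjusted threshold by edgeR's test. The part of either cell type in the Il17d values was not tested.

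Several receptors of lymphocyte growth factors varied more within CS than between the groups. Il2rb, the beta chain of the IL-2 and IL-15 receptors, measured 41.5 and 47.7 CPM in CS libraries 1 and 2, 13.9 CPM in CS replicate 3 and 25.5 to 43.8 CPM in SS-31H_CS (-0.10, adjusted p = 0.913). Il21r was at 7.29 CPM in CS replicate 3 and 11.8 to 21 CPM in the other libraries (0.52, adjusted p = 0.391). Il10ra, Il27ra, Il9r, Il5ra and Il15 were likewise lowest of the 6 libraries in CS replicate 3. That library was the lowest in 15 of the 39 tested members, where it was the lowest in 28.7% of all tested genes. Summed markers of B and plasma cells were 70.1 CPM there against 176 to 301 CPM elsewhere, beside the T and NK cell sum given above. Hemoglobin and related red cell genes summed to 185 CPM there against 692 to 898 CPM elsewhere. The part of these in the receptor values was not tested. Il7r, which marks naive and memory T cells and innate lymphoid cells, was at 12.0 to 15.1 CPM in CS and 11, 21 and 19.9 CPM in SS-31H_CS (0.33, adjusted p = 0.510). Il2ra was at 1.67 to 3.32 CPM and 1.29 to 5.26 CPM, again highest in SS-31H_CS replicate 2.

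Among the cytokines of this family, Il15 averaged 7.30 ± 2.11 and 8.85 ± 0.879 CPM in CS and SS-31H_CS (SD, n = 3 per group; adjusted p = 0.577), and Il7 at 3.27 ± 0.653 and 3.29 ± 0.50 CPM (adjusted p = 0.994). Il2 had 3 reads in all. Il15ra, which presents IL-15 to neighbouring cells, had overlapping groups (adjusted p = 0.803). Of 11 tested lineage factor genes of T helper cells, 3 were higher at an unadjusted p under 0.05, 0 lower, and 0 passed the adjusted threshold by edgeR's test or by DESeq2. They include Maf (0.45, adjusted p = 0.216) and Rora (0.33, adjusted p = 0.224), each above the CS range in every SS-31H_CS library.

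In the IL-10 and IL-20 receptor family the chains went different ways. Il20rb pairs with Il20ra for IL-19, IL-20 and IL-24, and with Il22ra1 for IL-20 and IL-24. It was at 4.07, 5.10 and 9.08 CPM in CS and 3.43, 2.99 and 2.82 CPM in SS-31H_CS. The groups did not overlap (1.97-fold lower, log2 fold change -0.98, SE 0.32, adjusted p = 0.187 by edgeR's test), but CS replicate 3 carried much of the difference. The log2 fold change ran from -1.21 to -0.58 with 1 library left out. Its ligand genes Il19, Il20 and Il24 had 2, 0 and 1 reads in all. Il10rb was at 69.1, 66.3 and 55.9 CPM in CS and 79.8, 73.6 and 73.6 CPM in SS-31H_CS, without overlap (0.25, SE 0.11, adjusted p = 0.297), and 14.9% of its exon length is shared with Gm21970 on the same strand. Il10ra was at 47.4, 40.3 and 25.5 CPM and 53.9, 50.1 and 43.3 CPM (0.38, adjusted p = 0.383). Il22ra1 had overlapping groups at 1.12 to 2.84 CPM, and Il22ra2, the soluble IL-22 binding protein gene, was at 1.11 to 1.89 CPM in CS and 0.550 to 1.24 CPM in SS-31H_CS (-0.73, adjusted p = 0.367).

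Genes of the IL-12 family were expressed at low levels. Il12a was at 1.05 to 2.30 CPM in CS and 1.65 to 3.07 CPM in SS-31H_CS (adjusted p = 0.671), and Il27 at 0.531 to 1.26 CPM and 0.529 to 1.36 CPM (adjusted p = 0.686). Il23a had 0, 2 and 17 reads in CS replicates 1, 2 and 3 and 1, 4 and 3 reads in SS-31H_CS. The receptor gene Il12rb2 was at 0.370 to 1.78 CPM and 0.470 to 1.22 CPM (-0.45, adjusted p = 0.715), and 40.0% of its exon length lies opposite exons of Serbp1. Il12rb1 and Il23r had 43 and 21 reads in all.

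Among members tied to the IL-1 superfamily, a co-receptor, an inhibitor and a cytokine had lower means with SS-31. Il1rap, the co-receptor shared by IL-1, IL-33 and IL-36 receptors, was at 27.9, 26.9 and 34.6 CPM in CS and 25.4, 19.8 and 20.4 CPM in SS-31H_CS, without overlap (1.36-fold lower, log2 fold change -0.45, SE 0.15, adjusted p = 0.197 by edgeR's test). Il18bp, the secreted inhibitor of IL-18, was at 17.4, 27.2 and 43.6 CPM in CS and 14.7, 21.4 and 7.06 CPM in SS-31H_CS. The groups overlapped (-1.03, SE 0.43, adjusted p = 0.258), and the log2 fold change ran from -1.43 to -0.64 with 1 library left out. Il1f9 was at 34.3, 21.4 and 21.5 CPM in CS and 22.9, 9.17 and 6.88 CPM in SS-31H_CS (-0.99, SE 0.42, adjusted p = 0.268), with 1 library of SS-31H_CS inside the CS range. With 1 library left out the log2 fold change of Il1f9 ran from -1.69 (without SS-31H_CS replicate 1, adjusted p = 0.0765) to -0.69. The IL-36 receptor gene Il1rl2 was at 9.91 to 12.9 CPM in CS and 12.0 to 18.4 CPM in SS-31H_CS (0.34, adjusted p = 0.408). Il1f5, Il1f6, Il1f8, Il1f10 and Il1rapl2 had 0 reads in every library.

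Neutrophil markers varied among the SS-31H_CS libraries in the same way as Il1f9. Summed over 6 genes they were 2917, 2280 and 3373 CPM in CS replicates 1, 2 and 3 and 3287, 1254 and 440 CPM in SS-31H_CS replicates 1, 2 and 3. In SS-31H_CS, replicate 1 was highest and replicate 3 lowest for this sum, for Il1f9, Il17ra and Il6ra, and for Il4ra. Other members shared that order, among them Il10ra, Il15, Il16 and Il17d. Of these, Il10ra, Il15 and Il17d had positive log2 fold changes. In CS the marker sum was highest in replicate 3 and Il1f9 in replicate 1. All 6 markers had a negative log2 fold change (median -0.81, beside 0.01 over all tested genes), 1 was lower at an unadjusted p under 0.05, and 0 passed the adjusted threshold by edgeR's test or by DESeq2. The part of neutrophil number in these members was not tested.

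Cytokines and receptors of myeloid growth completed the list. Il3ra, the IL-3 receptor alpha chain gene, was at 26.4, 26.9 and 25.7 CPM in CS and 35.6, 29.9 and 31.7 CPM in SS-31H_CS, without overlap (1.23-fold higher, log2 fold change 0.30, SE 0.11, adjusted p = 0.224 by edgeR's test). The beta chain genes it can pair with, Csf2rb and Csf2rb2, gave log2 fold changes of -0.64 and -0.35 (adjusted p = 0.327 and 0.560). Il5ra, the eosinophil receptor gene, was at 0.185 to 1.30 CPM and 0.768 to 1.71 CPM (adjusted p = 0.629). Il34, a ligand of the CSF1 receptor, was at 19.2, 15.4 and 12.3 CPM in CS and 23.5, 18.9 and 21.8 CPM in SS-31H_CS (0.45, SE 0.18, adjusted p = 0.253), with SS-31H_CS replicate 2 just inside the CS range. Its receptor gene Csf1r was at 180 ± 21.7 and 200 ± 30.2 CPM (SD, n = 3 per group; adjusted p = 0.616). Il16, a chemoattractant for CD4 cells, was at 36.6 to 47.7 CPM and 33.5 to 49.0 CPM (-0.10, adjusted p = 0.768).

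Among 19 tested partner genes of these systems that carry no interleukin name, 3 were higher and 2 lower at an unadjusted p under 0.05, and 0 passed the adjusted threshold by edgeR's test (1 by DESeq2). The epithelial cytokine gene Tslp was at 1.12, 1.95 and 1.17 CPM in CS and 2.01, 2.20 and 4.82 CPM in SS-31H_CS (1.08, adjusted p = 0.243). Ptprz1, which encodes a further IL-34 receptor (0.70, adjusted p = 0.180), was also above the CS range in every SS-31H_CS library. Tnfrsf1a (-0.48, adjusted p = 0.149) and Osmr were below it.

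Of the 33 members below the filter, 9 had 0 reads in every library and the other 24 had 1 to 53 reads in all. Besides those given above, they include Il4i1, an amino acid oxidase gene with 4, 5 and 0 reads in CS and 10, 6 and 7 with SS-31, of which 83.9% of the exon length lies opposite exons of Tbc1d17. Il20ra, Il31ra, Il11ra2 and Il1rapl1 had 29, 34, 14 and 9 reads in all. For the members with few or no reads a difference between the groups was not detectable at this depth. Exons of 21 of the 72 members overlap exons of another annotated gene, over 10% or more of the member's exon length in 8, and the strand setting of the counting is not given in the sources used here.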

How the data were processed

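Total RNA of lung was sequenced in 6 libraries, 3 per group. The deposited values are unnormalized read counts for each Ensembl gene and, in a second table by the authors, FPKM. Per the submitters' processing notes, cutadapt 1.9.1, HISAT2 2.0.1, HTSeq 0.6.1 and GRCm38 were used. The annotation release, strand setting and filters are not given in the sources used here. The ratio of FPKM to count tracked the library totals within 0.325% in 3310 genes above 1000 counts.

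Symbols and coordinates came from GENCODE M21 (55394 identifiers matched, 179 did not). The counts were fitted over the whole table with edgeR 4.0.16 (R 4.3.3): TMM normalization, filterByExpr (minimum count 10, minimum total 15), the quasi-likelihood test, two-sided, and Benjamini-Hochberg adjustment over 16965 genes. A gene was said to change at an adjusted p under 0.05. SE is the size of the log2 fold change divided by the square root of the F statistic. CPM use TMM-scaled library sizes. The fit was tested on simulated data.

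Members given with full values are the 12 tested members with the lowest p, the 10 with the highest mean FPKM and 22 fixed genes. Other lists show up to 4 genes by lowest p. Genes named beyond this, among them those high in SS-31H_CS replicate 2, were chosen after their values were seen. Some genes of the lists are not reported here. The members and lists were chosen with earlier results of these data known. Alternatives were RLE factors, library size alone, other filters, DESeq2 1.42.0, limma 3.58.1 (voom, and trend on log2 FPKM), a looser threshold, a replicate block and leaving out each library.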

Additional observations from a re-analysis of the deposited data

How the results depend on the processing

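The number of interleukin genes past the adjusted threshold, 0, was 1 without a low-count filter (Il4ra), 1 at an adjusted p under 0.1 (Il4ra) and 2 by DESeq2, and it stayed at 0 with any 1 library left out. The number at an unadjusted p under 0.05, 11, was 4 to 10 with 1 library left out: 4 without SS-31H_CS replicate 3 and 6 when CS replicate 3 was dropped, in fits that also had fewer samples. The median log2 fold change of the tested members, 0.06, was 0.20 without the filter and 0.19 by DESeq2, and with 1 library left out it ran from -0.05 (without SS-31H_CS replicate 2) to 0.19 (without CS replicate 2). The number of all genes past the threshold, 26, was 1 to 15 with 1 library left out, 299 at an adjusted p under 0.1, 648 without the filter, 939 by DESeq2, 12 with library size alone, 6 by voom and 5, 6 and 4 on log2(FPKM + 0.1), log2(FPKM + 1) and log2(FPKM + 1) without a filter. The cause was not tested.

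Same-numbered libraries did not deviate together (correlations 0.02, 0.03 and -0.07), so the numbers were not taken to pair them. With the replicate number as a block, 0 genes and 0 members passed, 11 members had an unadjusted p under 0.05, and Il4ra had a log2 fold change of -1.16.

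Of 611 log2 fold changes of the 39 tested members under 16 alternatives, 568 kept their direction and side of the threshold. Il4ra passed by DESeq2 (-1.13) and without the filter (-1.12), and Il6st by DESeq2 (-0.38). Signs turned in 10 members, all with an adjusted p of at least 0.671. With 1 library left out their ranges were -0.26 to 0.02 (Il16), -0.34 to 0.09 (Il11), -0.06 to 0.20 (Il2rg), -0.20 to 0.06 (Il15ra), -0.36 to 0.64 (Il2ra, negative without SS-31H_CS replicate 2), -0.04 to 0.68 (Il22ra1), -0.11 to 0.17 (Il7), -0.24 to 0.18 (Il17rd), -0.34 to 0.07 (Il17re) and -0.48 to 0.21 (Il2rb). Il7 was -0.01 by DESeq2, with RLE factors and without the filter. With library size alone Il11 was 0.01 and Il17rd 0.05. Il17rd and Il2rb were 0.05 and 0.02 with the replicate block, 0.05 and 0.03 by voom, 0.10 and 0.09 on log2(FPKM + 0.1), and 0.08 and 0.06 on log2(FPKM + 1) with or without a filter, where Il11 was 0.00 without one. Il17rd was 0.00 with a filter of 1 CPM in 3 libraries. The 33 members below the low-count filter have no test in the report, and floors cover counting error only.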
